A study of Mus musculus with 30 samples.

Results

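Class 3 semaphorins are secreted guidance proteins, and neuropilins and plexins are the cell-surface proteins through which they act. The 10 members described here are the ligands *Sema3a* to *Sema3g*, the neuropilins *Nrp1* and *Nrp2*, and *Plxnd1*, the plexin bound by *Sema3e*. They were listed by gene family and receptor role, with earlier results of these data known, and are 10 of the 32386 gene symbols in the deposited tables. The detection filter kept 17564 symbols for testing, and all 10 members were among them. Most class 3 semaphorins bind a neuropilin, which has a short cytoplasmic tail and signals together with an A-type plexin or *Plxnd1*. *Sema3e* can bind *Plxnd1* without a neuropilin, and neuropilins also serve as co-receptors for vascular endothelial growth factors. The family is best known for repelling axons and shaping vessels, and in the embryonic hindgut *Sema3a* affects the entry of sacral neural crest cells.

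The study compared mesenchymal cells of the mouse small intestine (SI) and colon lamina propria by bulk RNA sequencing of sorted populations. Cells came from untreated C57BL/6Nrj mice aged 8–10 weeks, and each of the 10 populations was sequenced in 3 libraries, 30 in all. Dead, lineage-positive, CD31+, BP3+, EpCAM+ and NCAM hi cells were gated out before the populations were collected. Pericytes of both tissues were PDGFRα-, ESAM-1+ and PDPN-, and smooth muscle cells (SMC), sorted from the SI alone, differed from them in being PDPN+. The fibroblasts (FB) were ESAM-1- in both tissues. In the SI, CD34+ FB had intermediate PDGFRα and CD34, *Fgfr2*+ FB had intermediate PDGFRα without CD34, and PDGFRα hi FB had high PDGFRα without CD34. In the colon, CD81+ FB had intermediate PDPN with CD34 and without CD90, CD90+ FB had high PDPN with both CD34 and CD90, and *Fgfr2*+ FB had high PDPN with CD34 and without CD90. Colonic PDGFRα hi FB were PDPN+ and lacked CD34. The gates of the populations paired between tissues therefore differed, for *Fgfr2*+ FB in CD34 and for PDGFRα hi FB in the marker used, and tissue cannot be told apart from gate in those pairs.

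Library depth lay between 2245052 and 19096945 estimated counts (median 9601683), and the smallest library was replicate 3 of SI *Fgfr2*+ FB. The sample labels describe 3 individual mice, whereas the article describes independent sorts. The article also says that SI and colonic subsets came from the same animals, without saying which libraries share a mouse. Each *p* value of the main fit sets a difference against the spread between libraries. That spread was estimated over all 30 libraries, which were taken as independent. An exact permutation of 3 against 3 libraries cannot go below 0.10, and every *p* value here rests on the variance model of its test, edgeR or, in alternatives, DESeq2. Levels are given as CPM, library-scaled counts with TMM size factors, unless another scale is named. A gene was called when its Benjamini–Hochberg adjusted *p* value from the edgeR quasi-likelihood test was below 0.05 and its absolute log2 fold change was above 1.5. Fold changes against several populations averaged their fitted log2 levels, to which a population with low levels adds much. They therefore differ from the ratios of mean CPM given beside them. The alternatives named beside a result are another test, filter, size factor or model, protein-coding transcripts only, and each library of the comparison left out in turn. Correlations of log2 CPM between libraries of the same population ran from 0.723, for SI pericyte replicates 1 and 2, to 0.972, for SI CD34+ FB replicates 1 and 3. In bulk libraries, a smaller share of expressing cells and less RNA per cell cannot be told apart.

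Apart from *Thy1*, each marker set had its highest summed level in a population named for it, and several sets were also present elsewhere. Whether such signal came from cells of another type or from the sorted cells themselves was not tested. All 6 pericyte markers were present in both pericyte populations and summed to 52500, 35500 and 44400 CPM in the SI libraries and to 38400, 53400 and 32600 CPM in the colon libraries. *Rgs5* was the most abundant of them, at 31700 and 33500 CPM on average. The same sum was 4370, 4020 and 7480 CPM in SI SMC and 4100, 4310 and 3640 CPM in SI CD34+ FB. It averaged 2070 CPM in SI *Fgfr2*+ FB, 2860 CPM in SI PDGFRα hi FB and between 343 and 734 CPM in the colonic FB. The 6 SMC markers summed to 23300, 20300 and 24900 CPM in SI SMC, where *Myh11* led at 11500 CPM, and to 9920, 11200 and 10900 CPM in colonic pericytes. *Pdgfra* averaged 6520 CPM in SI and 2440 CPM in colonic PDGFRα hi FB, and at most 923 CPM in any other population. The CD81+ and CD34+ FB markers, led by *Grem1*, summed to 4370, 4290 and 3660 CPM in colonic CD81+ FB and to 2610, 2190 and 1930 CPM in SI CD34+ FB. *Fgfr2* was at 1470, 1980 and 1490 CPM in SI *Fgfr2*+ FB and at 504, 459 and 457 CPM in the colonic population of that name, where CD90+ FB averaged 366 CPM. *Thy1*, which encodes CD90, averaged 197 CPM in CD90+ FB where colonic *Fgfr2*+ FB had 26.6 CPM, although it also averaged 98.8 CPM in the CD90- sorted CD81+ FB and 221 CPM in SI pericytes.

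Among markers of cells that the gates excluded, 5 of 8 endothelial genes averaged over 1 CPM in colonic CD81+ FB, where the sum was 380, 378 and 316 CPM and *Tek* supplied 307 CPM. In SI pericytes 7 of the 8 did so, with sums of 278, 191 and 161 CPM, again led by *Tek*, and *Cldn5* was at 0. Elsewhere the endothelial sums averaged 55.4 to 87.8 CPM. The 6 immune genes summed to 204, 4.92 and 24.4 CPM in SI pericytes, led by *Cd79a* with *Tyrobp* at 0, and averaged at most 29.4 CPM in the other populations. The 7 epithelial genes averaged between 4.25 and 29.8 CPM, with the top library at 74.2 CPM, replicate 1 of SI *Fgfr2*+ FB. The 4 lymphatic endothelial genes summed to 3.76, 107 and 45.1 CPM in colonic pericytes, led by *Lyve1*, and averaged at most 19.3 CPM elsewhere. Glial and neuronal genes averaged between 8.94 and 40.6 CPM. *Ano1*, also used to mark interstitial cells of Cajal, averaged 778 and 723 CPM in SI and colonic pericytes, where *Kit* averaged 2.93 and 0.042 CPM.

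The number of members called differed between the 11 comparisons, and so did the share of all tested genes that was called. Against colon, the SI populations had 1 member called in PDGFRα hi FB (0.957% of all genes called), 3 in *Fgfr2*+ FB (1.45%) and 1 in pericytes (5.69%). All 5 of these were lower in the SI. The interaction of tissue with the PDGFRα hi and *Fgfr2*+ subsets called 0 members by edgeR (0.660% of all genes), while 4 of the 10 members and 1380 genes had an unadjusted *p* below 0.05 and DESeq2 called 1 member, *Sema3d*. The fit of those libraries alone called 1 other, *Nrp2*. Between PDGFRα hi and *Fgfr2*+ FB, 1 member was called in the SI (2.52%) and 2 in the colon (1.33%), all lower in PDGFRα hi FB. SI CD34+ FB differed from the mean of the other SI FB in 1 member (2.72%), and colonic CD81+ FB from the mean of the other colonic FB in 3 (3.42%), 2 of them higher. Pericytes differed from the FB of their tissue in 4 members in the SI (16.6%) and in 3 in the colon (16.0%). SI SMC differed from SI pericytes in 4 members, 2 higher and 2 lower (10.2%). These comparisons share libraries, so the 23 calls are not independent of each other. *Sema3c* accounted for 7 of the 23 calls, *Sema3d* for 5 and *Plxnd1* for 4, while *Sema3e*, *Sema3f* and *Sema3g* had 0.

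**Figure D1:**
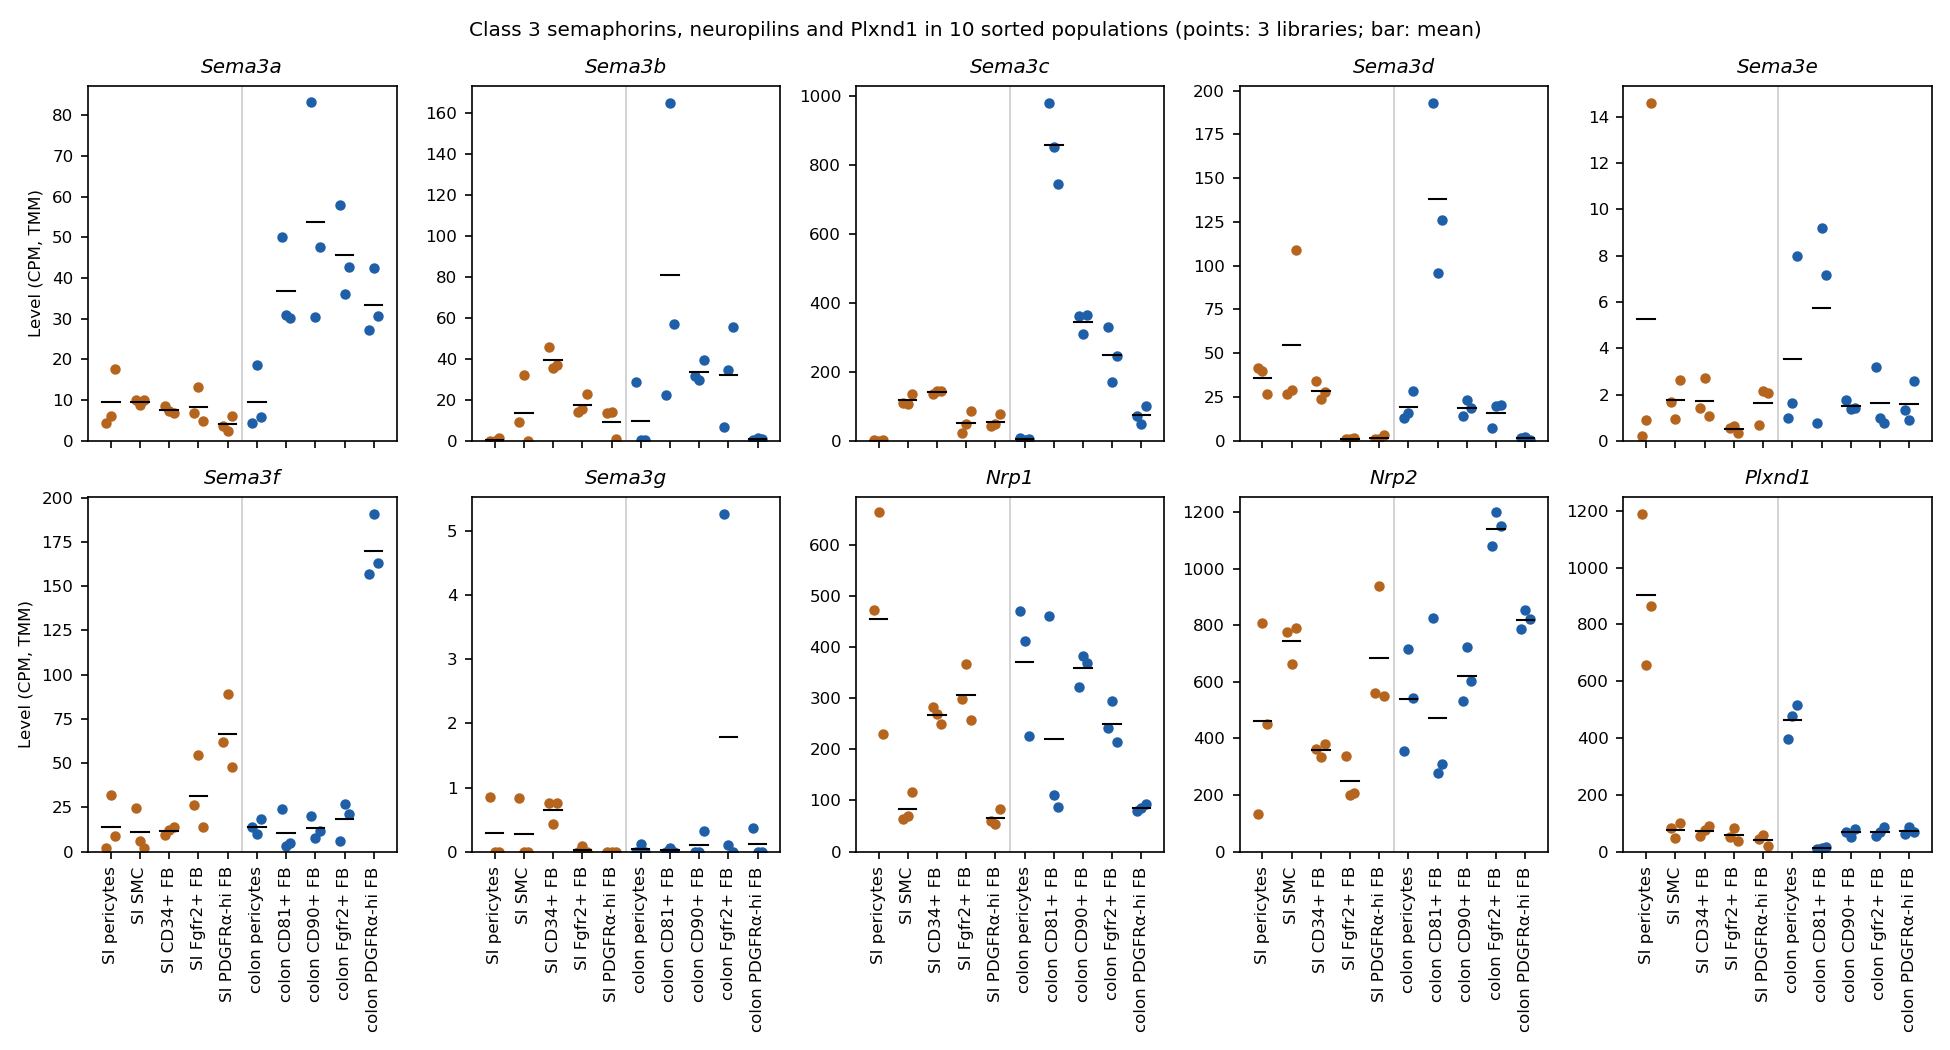
Level of each member in every library of the 10 populations. Points are libraries and bars are means.

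**Figure D2:**
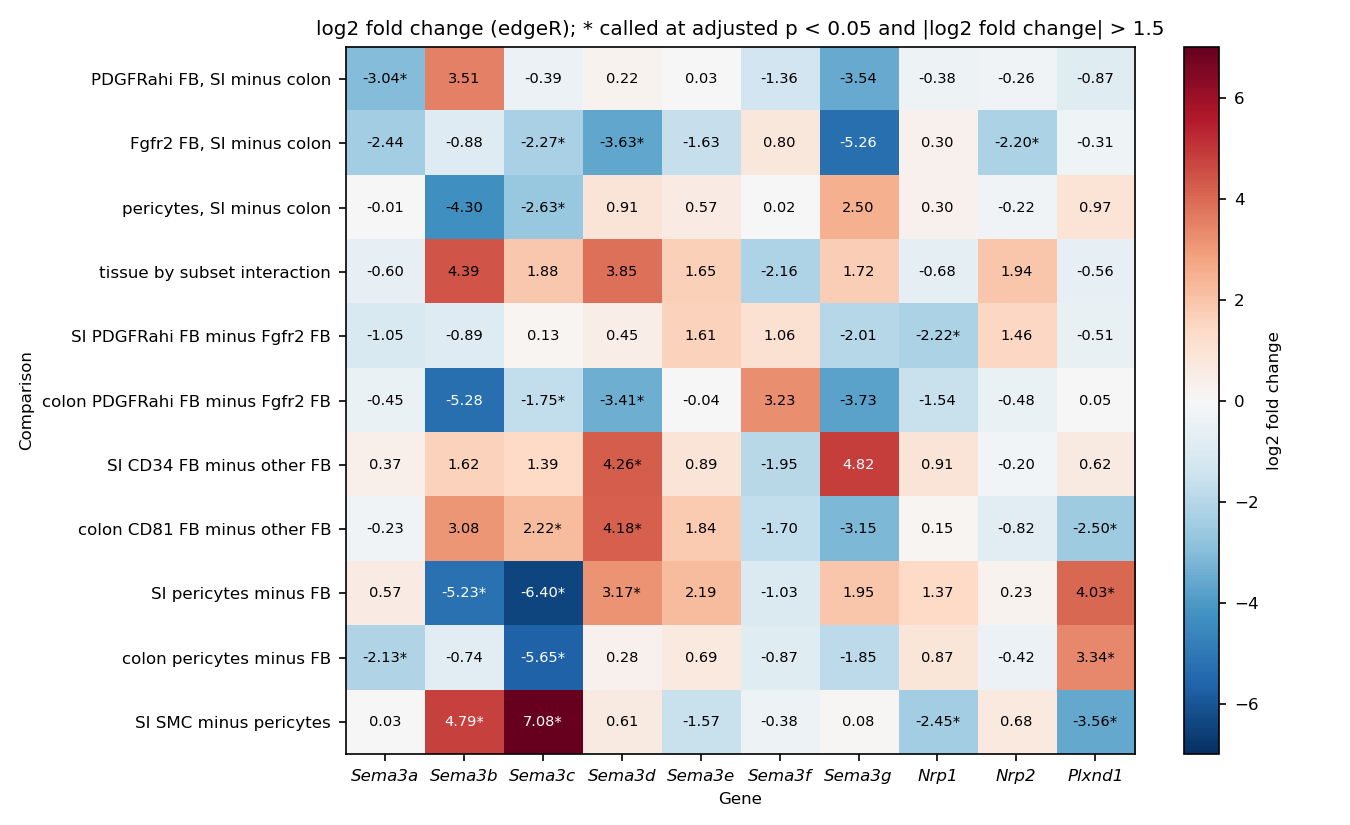
Log2 fold change of each member in each of the 11 comparisons, from the edgeR fit over all libraries. Asterisks mark calls.

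*Sema3a*, a ligand of *Nrp1*, was higher in the FB of the colon than in every SI population. It was at 50, 30.8 and 30.1 CPM in CD81+ FB and at 83.1, 30.4 and 47.7 CPM in CD90+ FB. Colonic *Fgfr2*+ FB had 58.0, 36.0 and 42.7 CPM and colonic PDGFRα hi FB 27.1, 42.4 and 30.7 CPM. These 4 populations overlapped, and the lowest of them had 3.46 times the mean of the next population without overlap. That next population was SI SMC, at 10.1, 8.76 and 10.0 CPM, which overlapped colonic pericytes at 4.41, 18.5 and 5.75 CPM. SI PDGFRα hi FB were lowest, at 3.62, 2.37 and 6.20 CPM, below every library of SI CD34+ FB (8.58, 7.32 and 6.77 CPM). In PDGFRα hi FB *Sema3a* was lower in all 3 SI libraries (log2 fold change −3.04, SE 0.67, edgeR adjusted *p* = 0.0149). That call was lost without replicate 2 of the colonic population (−2.83), or without replicate 1 (−2.97) or 2 (−2.76) of the SI population, and over 13 alternatives the adjusted *p* ran from 5.63e-06 to 0.139. In *Fgfr2*+ FB the SI values of 6.91, 13.3 and 4.84 CPM also lay below all colonic values, with a log2 fold change of −2.44 that missed the threshold (edgeR adjusted *p* = 0.0518). DESeq2 alone called it, and the adjusted *p* over 13 alternatives ran from 0.000913 to 0.218. Colonic pericytes were below all colonic FB libraries (−2.13, SE 0.57, edgeR adjusted *p* = 0.00837, all 3 lower). Leaving out replicate 1 (−1.78) or 3 (−1.86) of the colonic pericytes ended that call, and leaving out replicate 2, the highest, took the value to −3.05, with adjusted *p* from 2.79e-05 to 0.0592 over 22 alternatives. With protein-coding transcripts only the value was −2.80. Replicate 2 was also the colonic pericyte library with the highest lymphatic endothelial sum, 107 CPM, whose part in the result was not tested. SI pericytes, SMC and *Fgfr2*+ FB overlapped one another in *Sema3a*.

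*Sema3b*, a ligand of both neuropilins, varied widely between replicates. In colonic CD81+ FB, the population with the highest mean, it was at 22.2, 165 and 57.0 CPM, and in SI SMC at 9.39, 31.9 and 0 CPM. SI CD34+ FB had 45.7, 35.4 and 37.1 CPM and CD90+ FB 31.5, 29.7 and 39.4 CPM. Every pair of neighbours in the level order overlapped. The lowest populations were SI pericytes, at 0, 0.126 and 1.23 CPM, and colonic PDGFRα hi FB, at 0.368, 1.40 and 0.679 CPM. *Sema3b* was lower in SI pericytes than in SI FB (log2 fold change −5.23, SE 1.53, edgeR adjusted *p* = 0.0159), although replicate 3 of SI PDGFRα hi FB, at 0.804 CPM, made the libraries overlap. The call was lost without replicate 1 (−4.78) or 2 (−4.76) of SI pericytes, with adjusted *p* from 3.92e-05 to 0.0677 over 19 alternatives. SI pericytes had 0, 1 and 10 counts, and on coding transcripts 0, 1 and 0. Without replicate 3 or on coding transcripts all their counts are under a floor of 3 per library, so those fold changes are not given. The fold changes against SI pericytes that are given also include replicates 1 or 2, which are under that floor, so their size is uncertain. SI SMC were higher than SI pericytes (4.79, SE 1.58, edgeR adjusted *p* = 0.0492), also with overlapping libraries because SMC replicate 3 was at 0. That call was lost in the fit with a replicate block (4.48), in the fit of those libraries alone (4.88), and without SI pericyte replicate 1 (4.37) or 2 (4.33) or SMC replicate 1 (5.0) or 2 (3.24). Without SMC replicate 3 the value was 5.43, and the adjusted *p* over 13 alternatives ran from 0.00299 to 0.366. In colonic PDGFRα hi FB *Sema3b* was below all libraries of colonic *Fgfr2*+ FB (6.61, 34.6 and 55.6 CPM), yet the test did not pass (−5.28, SE 1.58, edgeR adjusted *p* = 0.118). DESeq2, the fit without a count filter and the fit of those libraries alone did call it, with adjusted *p* from 0.00288 to 0.466 over 13 alternatives. The same 3 alternatives called *Sema3b* higher in colonic CD81+ FB than in the other colonic FB, where edgeR did not (3.08, SE 0.97, edgeR adjusted *p* = 0.0702, libraries overlapping, 0.00215 to 0.468 over 19 alternatives). Between SI and colonic pericytes the value was −4.30 (SE 1.56, edgeR adjusted *p* = 0.0931, libraries overlapping), and 2 of 13 alternatives called it, with adjusted *p* from 0.0123 to 0.986 and values up to 0.25. Colonic pericytes, at 28.6, 0.378 and 0.431 CPM, did not pass the test against colonic FB (−0.74, edgeR adjusted *p* = 0.715). Without replicate 1 they were called lower (−5.29), with adjusted *p* from 0.0202 to 0.988 over 22 alternatives.

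*Sema3c*, which can bind both neuropilins and has roles in outflow tract and vessel formation, reached the highest level of any ligand, in CPM and in CPM per kb. Colonic CD81+ FB had 979, 852 and 743 CPM, 2.49 times the mean of CD90+ FB (361, 309 and 365 CPM) and without overlap. Colonic *Fgfr2*+ FB (329, 169 and 245 CPM) overlapped CD90+ FB. In the SI the top was CD34+ FB at 135, 143 and 144 CPM, which overlapped SMC at 111, 108 and 135 CPM. Colonic PDGFRα hi FB (71.3, 48.0 and 101 CPM), SI PDGFRα hi FB (42.3, 47.9 and 77.9 CPM) and SI *Fgfr2*+ FB (21.7, 48.3 and 85.1 CPM) overlapped one another. Pericytes were lowest, at 8.17, 2.27 and 5.67 CPM in the colon and 1.5, 0.253 and 0.984 CPM in the SI, and these did not overlap. *Sema3c* was higher in all 3 CD81+ FB libraries than in the other colonic FB (log2 fold change 2.22, SE 0.33, edgeR adjusted *p* = 7.17e-05). Protein-coding transcripts alone gave 2.19 with an adjusted *p* of 0.0815, and over 19 alternatives the adjusted *p* ran from 2.32e-07 to 0.0815. In the SI the difference between CD34+ FB and the other FB was 1.39, below the fold threshold (edgeR adjusted *p* = 0.0309, all 3 higher), and it was called without replicate 3 of SI PDGFRα hi FB (1.55) or of SI *Fgfr2*+ FB (1.67), with adjusted *p* from 0.00742 to 0.368 over 16 alternatives.

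In pericytes, *Sema3c* was lower than in FB of the same tissue in every library, by a log2 fold change of −6.40 (SE 0.57, edgeR adjusted *p* = 1.55e-09) in the SI. In the colon the change was −5.65 (SE 0.52, edgeR adjusted *p* = 1.86e-09). Both stood under all alternatives. On coding transcripts 2 of 3 libraries of each pericyte population had 0 counts, so no coding fold change is given. Over all transcripts SI pericytes had 7, 2 and 8 counts, near the floor of 3. The size of every *Sema3c* fold change and ratio against them is therefore uncertain. SI SMC had 130 times the mean of SI pericytes (7.08, SE 0.61, edgeR adjusted *p* = 2.92e-09, all 3 higher). The FB markers summed to 5130, 5290 and 9330 CPM in the SMC libraries and to 2560, 2550 and 1980 CPM in SI pericytes, and their part in the result was not tested. Against colonic pericytes, SI pericytes were lower (−2.63, SE 0.54, edgeR adjusted *p* = 0.00516, all 3 lower). This was lost in the fit of those libraries alone (−2.52) and with protein-coding transcripts only, where the counts are too few for a fold change. The adjusted *p* over 13 alternatives ran from 0.000243 to 0.694. The SMC markers summed to 4500, 2970 and 3180 CPM in SI pericytes and to 9920, 11200 and 10900 CPM in colonic pericytes. Their part in the result was not tested. SI *Fgfr2*+ FB were below colonic *Fgfr2*+ FB (−2.27, SE 0.46, edgeR adjusted *p* = 0.00564, all 3 lower). That call was lost with protein-coding transcripts only (−2.53) and without replicate 1 of SI *Fgfr2*+ FB, the lowest library (−1.90), with adjusted *p* from 8.87e-05 to 0.277 over 13 alternatives. Colonic PDGFRα hi FB were below colonic *Fgfr2*+ FB by a narrow margin (−1.75, SE 0.46, edgeR adjusted *p* = 0.0455, all 3 lower). With RLE size factors (−1.74) or protein-coding transcripts only (−1.80) that call was lost. It was also lost without replicate 1 (−1.5) or 3 (−1.76) of colonic *Fgfr2*+ FB, or without replicate 1 (−1.73), 2 (−1.52) or 3 (−2.05) of colonic PDGFRα hi FB, and the adjusted *p* over 13 alternatives ran from 0.0058 to 0.703.

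*Sema3d*, known from cardiac and vascular development, divided the FB of both tissues. In colonic CD81+ FB it was at 193, 95.6 and 126 CPM, and in SI CD34+ FB at 34.1, 23.9 and 28.1 CPM. SI *Fgfr2*+ FB had 1.05, 1.17 and 1.73 CPM, SI PDGFRα hi FB 1.07, 0.846 and 3.33 CPM, and colonic PDGFRα hi FB 1.47, 2.42 and 0.543 CPM. These 3 populations overlapped and lay below all others, with a 9.03-fold step from SI PDGFRα hi FB to the next mean, that of colonic *Fgfr2*+ FB (7.13, 19.7 and 20.6 CPM). SI pericytes had 41.4, 40.0 and 26.9 CPM and colonic pericytes 13, 15.8 and 28.7 CPM. SI SMC had 26.5, 29.2 and 109 CPM, and the high replicate 3 was also the SMC library with the highest FB marker sum, 9330 CPM, and the highest endothelial sum, 180 CPM against 40.7 and 43.0 CPM, whose part in the result was not tested. Per kilobase of transcript, the highest mean passed from colonic CD81+ FB (30.4, SD 12.4 CPM per kb) to SI SMC (35.3, SD 41.9 CPM per kb). On coding transcripts alone the order was the opposite, with means of 17.1 CPM per kb in CD81+ FB and 3.16 CPM per kb in SMC.

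In the SI, *Sema3d* was higher in all 3 CD34+ FB libraries than in the other FB, with 18.7 times their mean (log2 fold change 4.26, SE 0.54, edgeR adjusted *p* = 4.72e-06). In the colon, all 3 CD81+ FB libraries exceeded the other FB, with 11.5 times their mean (4.18, SE 0.46, edgeR adjusted *p* = 8.77e-07). Both calls stood under all alternatives. Both values grew by more than 1.5 times on coding transcripts, of which SI *Fgfr2*+ FB and PDGFRα hi FB of both tissues had 0 counts. The endothelial genes summed to 380, 378 and 316 CPM in colonic CD81+ FB, mainly *Tek*, and their part in this result was not tested. *Sema3d* was also higher in SI pericytes than in SI FB (3.17, SE 0.46, edgeR adjusted *p* = 9.11e-06), with 3.41 times their mean. CD34+ FB overlapped the pericytes, whose mean was 1.26 times that of CD34+ FB. The value of 3.17 moved by more than 1.5 times on coding transcripts, of which SI *Fgfr2*+ and PDGFRα hi FB had 0 counts. Between tissues, SI *Fgfr2*+ FB were below colonic *Fgfr2*+ FB (−3.63, SE 0.71, edgeR adjusted *p* = 0.00359, all 3 lower). The fit of those libraries alone lost this call (−3.54), with adjusted *p* from 2.33e-06 to 0.11 over 13 alternatives. Colonic PDGFRα hi FB were below colonic *Fgfr2*+ FB (−3.41, SE 0.69, edgeR adjusted *p* = 0.00525, all 3 lower). Without replicate 3 of colonic PDGFRα hi FB this call was lost (−3.02), and the adjusted *p* over 13 alternatives ran from 1.07e-05 to 0.0651. The interaction of tissue and subset for *Sema3d* was 3.85 (SE 0.95, edgeR adjusted *p* = 0.0544). It was called by DESeq2 (3.79) and without colonic *Fgfr2*+ FB replicate 1 (4.2) or SI PDGFRα hi FB replicate 2 (4.2), and in none of the other alternatives. Over 19 alternatives the adjusted *p* ran from 0.00357 to 1, the highest from coding transcripts, on which 3 of the 4 populations had 0 counts.

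The transcripts behind the low *Sema3d* values were non-coding. In all 9 libraries of SI *Fgfr2*+, SI PDGFRα hi and colonic PDGFRα hi FB the kallisto estimate for protein-coding *Sema3d* transcripts was 0. A processed transcript of 708 bases, *Sema3d*-203, held 81.4%, 82.8% and 85.7% of the counts there, in that order, and no library of these populations had more than 29 *Sema3d* counts. In colonic CD81+ FB the coding transcript *Sema3d*-201 held 75.5%. With a floor of 3 counts per library, coding *Sema3d* in colonic CD81+ FB was at least 271-fold above colonic PDGFRα hi FB. On the same floor, SI CD34+ FB were at least 32.3-fold above SI *Fgfr2*+ FB and at least 53.5-fold above SI PDGFRα hi FB. Colonic *Fgfr2*+ FB were at least 24.2-fold above SI *Fgfr2*+ FB and at least 31.7-fold above colonic PDGFRα hi FB. SI pericytes were at least 35.0-fold above SI *Fgfr2*+ FB and at least 58.0-fold above SI PDGFRα hi FB in mean. They had 0, 266 and 159 coding counts, so replicate 1 carried its *Sema3d* on non-coding transcripts alone. A pseudogene, *Gm8925*, lies opposite *Sema3d* and reached at most 207 counts in any library.

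*Sema3c* estimates were also split by transcript class. The coding transcript *Sema3c*-201 held 83.3% to 91.2% of *Sema3c* counts in colonic FB and 90.9% in SI CD34+ FB, against 53.2% in SI SMC and 54.9% in SI *Fgfr2*+ FB, where the lowest libraries had 7.02% and 2.06%. In pericytes a retained-intron transcript of 1549 bases, *Sema3c*-205, held 63.0% in the colon (30.6% to 94.8% between libraries) and 50.3% in the SI. Coding counts were 0, 0 and 41 in colonic pericytes, 0, 0 and 4 in SI pericytes and 7, 397 and 209 in SI *Fgfr2*+ FB. For *Sema3a*, the 2285-base transcript *Sema3a*-204 held 84.6% in SI *Fgfr2*+ FB, 75.5% in SI PDGFRα hi FB and 62.6% in SI SMC. Colonic FB spread *Sema3a* mainly over the 4085-base *Sema3a*-202, at 29.1% to 40.9%, and the 5930-base *Sema3a*-201, at 24.2% to 32.1%. All transcript values are kallisto estimates, and the cause of the shares was not tested.

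**Figure D3:**
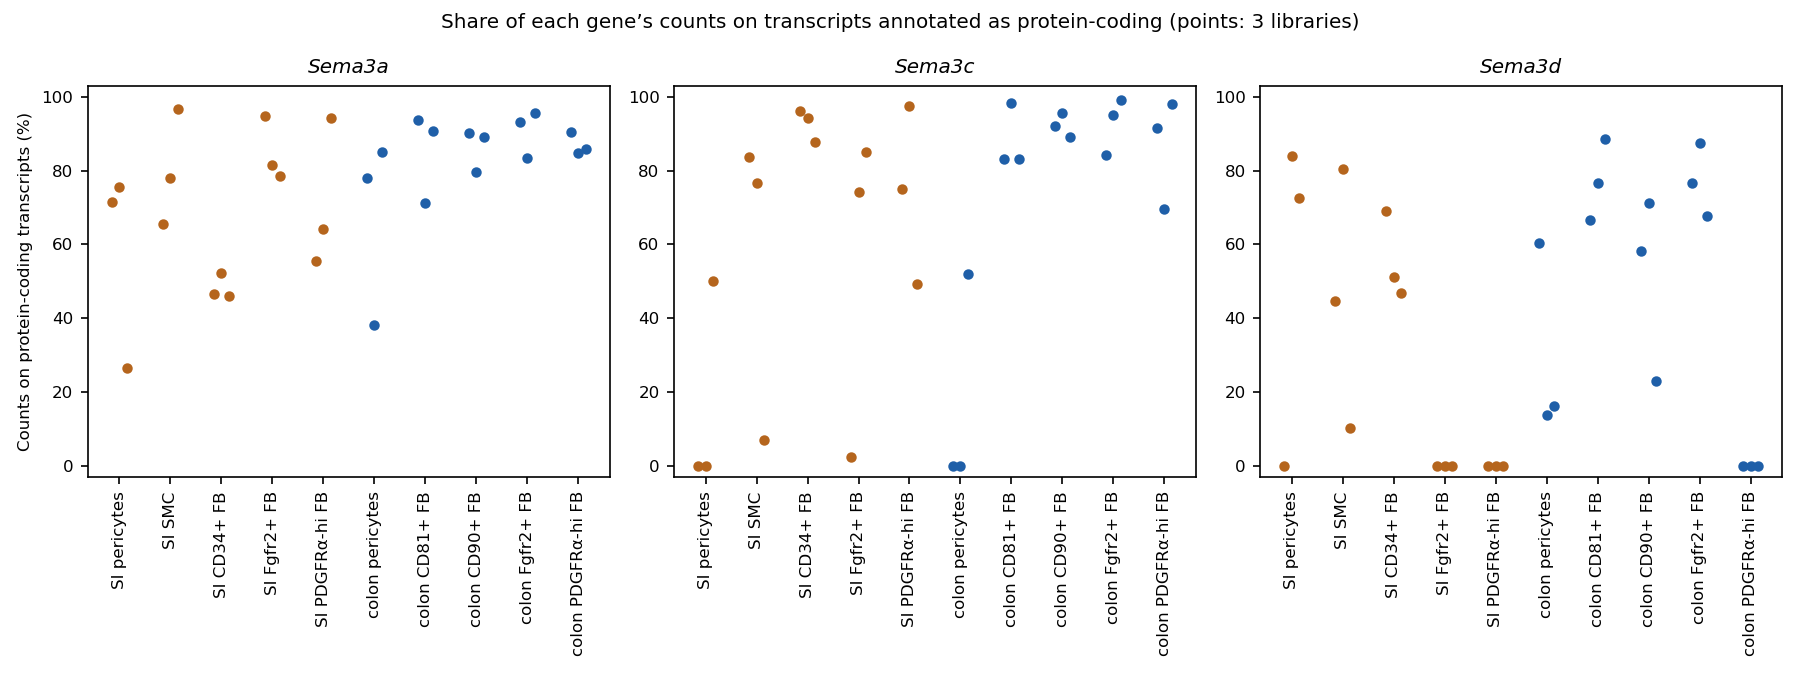
Share of *Sema3a*, *Sema3c* and *Sema3d* counts on protein-coding transcripts in every population. Points are libraries.

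*Sema3e*, the *Plxnd1* ligand, and *Sema3g*, a ligand of *Nrp2*, were close to absent. *Sema3e* averaged at most 5.72 CPM, in colonic CD81+ FB (0.780, 9.21 and 7.16 CPM), and SI pericytes had 0.214, 0.884 and 14.6 CPM. All neighbours in its order overlapped except CD90+ FB over SI *Fgfr2*+ FB. Replicate 3 held 119 of the SI pericyte counts, against 1 and 7 in replicates 1 and 2, and it set the share of 83.2% on a retained-intron transcript, *Sema3e*-202, which was 0% in the lowest library. Against SI FB, *Sema3e* in SI pericytes had a log2 fold change of 2.19 that did not pass (edgeR adjusted *p* = 0.0775). Without SI pericyte replicate 3 the direction turned (−1.01). It was called without replicate 1 (2.72) or 2 (2.69) and by DESeq2 (2.21), and over 19 alternatives the adjusted *p* ran from 0.0382 to 0.909. *Sema3g* averaged at most 1.79 CPM, in colonic *Fgfr2*+ FB, where replicate 1 had 5.27 CPM and replicate 3 had 0. It had 0 counts in 18 of 30 libraries and at most 51 counts in any. Low counts leave both genes without a reading of their order.

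*Sema3f*, which acts mainly through *Nrp2*, was highest in PDGFRα hi FB. It was at 157, 191 and 163 CPM in the colon and at 62.0, 88.9 and 47.8 CPM in the SI, a 2.57-fold difference in mean without overlap. SI *Fgfr2*+ FB had 26.2, 54.4 and 14.2 CPM and colonic *Fgfr2*+ FB 6.20, 26.9 and 21.4 CPM. SI PDGFRα hi FB overlapped SI *Fgfr2*+ FB. The remaining populations also overlapped their neighbours, with means from 10.6 CPM in colonic CD81+ FB to 31.6 CPM in SI *Fgfr2*+ FB. *Sema3f* was nonetheless called in 0 of the 11 comparisons. Between colonic PDGFRα hi and *Fgfr2*+ FB the ratio of means was 9.37, with all 3 libraries higher, and the log2 fold change of 3.23 (SE 0.90) had an edgeR adjusted *p* of 0.0719. DESeq2 (3.26), the fit without a count filter (3.25) and the fit of those libraries alone (3.26) called it, with adjusted *p* from 0.00147 to 0.346 over 13 alternatives. In the SI the same difference was 1.06 (SE 0.83), with overlapping libraries, and did not pass (edgeR adjusted *p* = 0.671). Between tissues the PDGFRα hi FB difference was −1.36, with all 3 SI libraries lower, and did not pass (edgeR adjusted *p* = 0.976, from 0.0182 to 1 over 13 alternatives, none of which called it). SI CD34+ FB were below the other SI FB in all 3 libraries (−1.95, SE 0.79, edgeR adjusted *p* = 0.282). The fit of those libraries alone called this (−1.96), with adjusted *p* from 0.0251 to 0.67 over 16 alternatives.

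Per kilobase of transcript, which allows ligands to be compared with each other, the summed class 3 semaphorins reached 373 ± 72.5 (mean ± SD) CPM per kb in colonic CD81+ FB. CD90+ FB had 138 ± 19.8, colonic PDGFRα hi FB 126 ± 30.5 and colonic *Fgfr2*+ FB 109 ± 19.7 CPM per kb. SI populations ranged from 25.0 ± 8.79 CPM per kb in pericytes to 85.0 ± 37.0 CPM per kb in SMC, where replicate 3 was at 128 and the others at 63.0 and 64.3, and colonic pericytes had 36.6 ± 6.05 CPM per kb. *Sema3c* led the sum in all 3 libraries of colonic CD81+ FB (75.0 ± 6.52%), CD90+ FB (57.3 ± 6.94%), colonic *Fgfr2*+ FB (52.5 ± 17.2%) and SI CD34+ FB (46.1 ± 2.68%). *Sema3f* led in all 3 libraries of colonic (69.1 ± 6.84%) and SI (58.9 ± 8.66%) PDGFRα hi FB. In SI *Fgfr2*+ FB *Sema3f* led in 2 of 3 libraries (42.6 ± 26.7%). *Sema3d* led in 2 of 3 SI pericyte libraries (48.0 ± 13.1%), and with protein-coding transcripts only *Sema3a* had the highest mean share there (39.4 ± 28.3%) but led in 1 of 3 libraries. The gene with the highest mean share was the same in the other 9 populations on protein-coding transcripts. These CPM per kb values include non-coding transcripts, and the part of any single transcript in them was not tested. On coding transcripts alone the sums were 279 ± 56.1 CPM per kb in colonic CD81+ FB, 29.4 ± 15.8 in SMC and 8.02 ± 6.68 in SI pericytes, and SI CD34+ FB had the highest SI mean, 49.6 ± 4.68 CPM per kb.

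**Figure D4:**
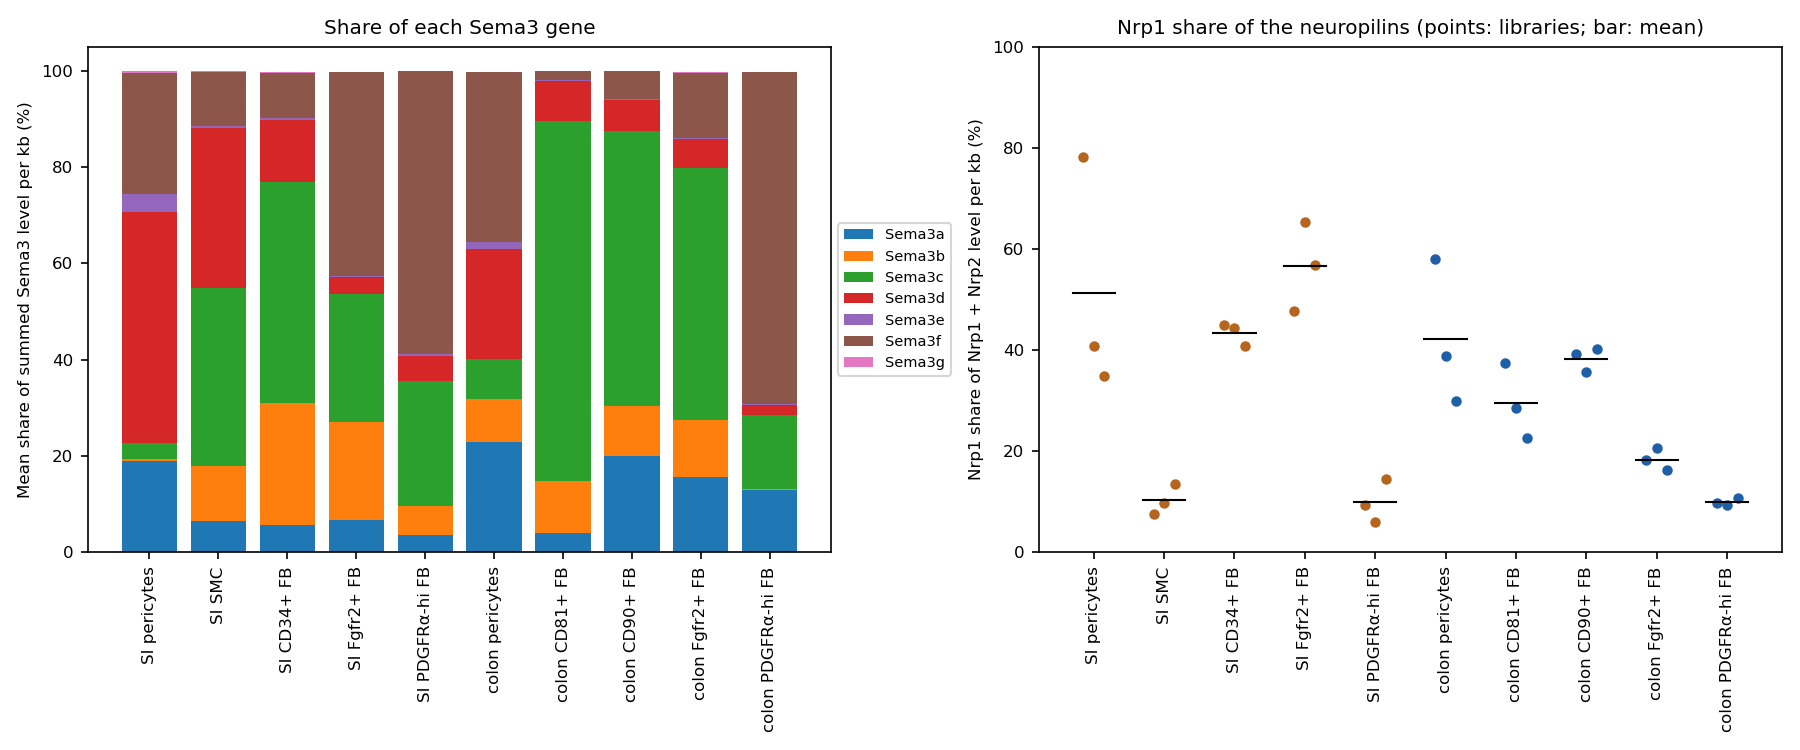
Mean share of each ligand in the class 3 semaphorin sum and *Nrp1* share of the neuropilin sum in each population, both on the CPM per kb scale.

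*Nrp1*, the neuropilin that binds *Sema3a* and vascular endothelial growth factor A, was high in pericytes and low in SMC and PDGFRα hi FB. SI pericytes had 472, 663 and 229 CPM and colonic pericytes 471, 412 and 226 CPM. SI SMC had 63.4, 69.9 and 116 CPM, SI PDGFRα hi FB 59.2, 54.5 and 84.3 CPM and colonic PDGFRα hi FB 80.1, 85.4 and 92.7 CPM. The other FB lay between, among them CD90+ FB at 322, 383 and 369 CPM and SI *Fgfr2*+ FB at 298, 366 and 257 CPM. Colonic CD81+ FB had 460, 111 and 87.2 CPM, and with that spread every pair of neighbours overlapped. On the deposited TPM scale CD90+ FB had the highest mean instead of SI pericytes. SI PDGFRα hi FB were below SI *Fgfr2*+ FB in all 3 libraries (log2 fold change −2.22, SE 0.46, edgeR adjusted *p* = 0.00408), and the call stood under all alternatives. The colonic counterpart was −1.54 (SE 0.45), all 3 lower, and did not pass (edgeR adjusted *p* = 0.104), though DESeq2 (−1.52) and the fit of those libraries alone (−1.53) called it, with adjusted *p* from 0.00268 to 0.368 over 13 alternatives. SI SMC were below SI pericytes (−2.45, SE 0.46, edgeR adjusted *p* = 0.000548, all 3 lower). The fit of those libraries alone gave −2.43 with an adjusted *p* of 0.0505, the highest over 13 alternatives, of which the lowest was 1.73e-06. In SI pericytes against SI FB *Nrp1* had an edgeR adjusted *p* of 0.00422 with a log2 fold change of 1.37, below the fold threshold, and it was called without replicate 3 of SI pericytes (1.69), with adjusted *p* from 0.000975 to 0.0714 over 19 alternatives. Colonic pericytes against colonic FB did not pass (0.87, SE 0.33, edgeR adjusted *p* = 0.0652, libraries overlapping).

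*Nrp2*, the neuropilin that binds *Sema3f* and vascular endothelial growth factor C, was present in every library. Colonic *Fgfr2*+ FB led at 1080, 1200 and 1150 CPM, 1.39 times the mean of colonic PDGFRα hi FB (785, 852 and 821 CPM) and without overlap. SI *Fgfr2*+ FB were lowest, at 337, 201 and 208 CPM. SI PDGFRα hi FB had 562, 937 and 551 CPM and SI SMC 777, 662 and 790 CPM. SI pericytes were spread over 133, 806 and 450 CPM, and the low replicate 1 was the library with immune genes at 204 CPM, whose part was not tested. *Nrp2* was lower in all 3 SI than in all 3 colonic *Fgfr2*+ FB libraries (log2 fold change −2.20, SE 0.44, edgeR adjusted *p* = 0.00469), and this was the only member call between tissues that stood under all alternatives. Between SI PDGFRα hi and *Fgfr2*+ FB it was 1.46 (SE 0.43), all 3 higher, and did not pass (edgeR adjusted *p* = 0.0687). Colonic CD81+ FB had 827, 279 and 310 CPM, and without its replicate 1 *Nrp2* was called lower than in the other colonic FB (−1.5), against −0.82 with it (edgeR adjusted *p* = 0.249). The adjusted *p* over 19 alternatives ran from 0.0352 to 0.645. The interaction of tissue and subset for *Nrp2* was 1.94 (SE 0.60, edgeR adjusted *p* = 0.201). The fit of those libraries alone called it (1.86), with adjusted *p* from 0.00917 to 0.513 over 19 alternatives. At least 90.8% of *Nrp2* counts fell on coding transcripts in every population.

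The balance of the neuropilins separated PDGFRα hi FB and SMC from the rest. Per kilobase, *Nrp1* made up 9.76 ± 4.26% of the neuropilin sum in SI PDGFRα hi FB, 9.89 ± 0.760% in colonic PDGFRα hi FB and 10.2 ± 3.09% in SI SMC. It made up 56.7 ± 8.84% in SI *Fgfr2*+ FB but 18.2 ± 2.23% in colonic *Fgfr2*+ FB. SI CD34+ FB had 43.3 ± 2.3%, CD90+ FB 38.2 ± 2.36% and colonic CD81+ FB 29.4 ± 7.38%. Pericytes were the most spread, at 51.3 ± 23.5% in the SI and 42.1 ± 14.4% in the colon.

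*Plxnd1*, the receptor of *Sema3e* and a partner of neuropilins, was highest in pericytes. SI pericytes had 1190, 658 and 864 CPM and colonic pericytes 395, 476 and 518 CPM, a 1.95-fold difference in mean without overlap. The test of that difference did not pass (log2 fold change 0.97, SE 0.39, edgeR adjusted *p* = 0.131). On coding transcripts the SI pericytes, at 1120, 478 and 416 CPM, overlapped the colonic ones, at 361, 470 and 456 CPM. SI SMC followed at 81.8, 48.3 and 100 CPM, with a 6.03-fold step below colonic pericytes. The FB other than CD81+ FB formed a chain of overlapping neighbours, with means from 40.2 CPM in SI PDGFRα hi FB to 73.6 CPM in SI CD34+ FB. Colonic CD81+ FB were lowest, at 7.88, 12.2 and 17.3 CPM, 3.22-fold in mean below SI PDGFRα hi FB and without overlap. *Plxnd1* was higher in all 3 SI pericyte libraries than in SI FB, with 15.9 times the mean (log2 fold change 4.03, SE 0.29, edgeR adjusted *p* = 2.63e-11). In the colon all 3 pericyte libraries were higher, with 8.24 times the mean (3.34, SE 0.27, edgeR adjusted *p* = 1.15e-10). It was lower in all 3 SI SMC libraries than in SI pericytes (−3.56, SE 0.43, edgeR adjusted *p* = 9.67e-07) and in all 3 colonic CD81+ FB libraries than in the other colonic FB (−2.50, SE 0.38, edgeR adjusted *p* = 7.88e-05). All 4 calls stood under all alternatives. *Plxnd1* also serves in endothelium, and the endothelial genes summed to 278, 191 and 161 CPM in SI pericytes and 45.2, 65.0 and 75.1 CPM in colonic pericytes, while colonic CD81+ FB, lowest in *Plxnd1*, had 380, 378 and 316 CPM. The pericyte markers summed to 4100, 4310 and 3640 CPM in SI CD34+ FB and to 456, 321 and 251 CPM in colonic CD81+ FB, and the part of either set in the *Plxnd1* values was not tested. The full-length *Plxnd1*-201 held 66.7% of counts in SI pericytes (44.2% to 94.3% between libraries) and 89.9% in colonic pericytes.

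Across the 10 populations, the mean log2 levels of some members moved with or against each other. *Sema3c* and *Plxnd1* had a correlation of −0.899 and *Sema3d* and *Sema3f* of −0.889, while *Sema3b* and *Sema3c* had 0.811. *Nrp1* and *Nrp2* had −0.466 and *Nrp1* and *Plxnd1* 0.508. Among 12613 genes, the profile most like *Sema3c* was that of *Zfp655* (0.987), the profile most like *Plxnd1* that of *Rdh13* (0.983) and the profile most like *Sema3f* that of *Abcc4* (0.968). *Hoxd13* was most like *Sema3a* (0.961), *Caskin1* most like *Sema3d* (0.916), *Nat8f3* most like *Sema3b* (0.980), *Serpine2* most like *Nrp1* (0.955) and *Rps27rt* most like *Nrp2* (0.864). With 10 points and so many genes, high values arise by selection. On GRCm38, *Sema3d* (12383385–12588948), *Sema3a* (13125414–13602565), *Sema3e* (14025276–14256689) and *Sema3c* (17574281–17730268) lie in that order on the plus strand of chromosome 5. *Sema3b* and *Sema3f* lie on the minus strand of chromosome 9.

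Plexins other than *Plxnd1* can also be signalling partners of the neuropilins. Of 8 tested, 4 were called in SI pericytes against FB (16.6% of all genes called) and 4 in the colon (16.0%), with median log2 fold changes of 0.24 and 0.66 where the medians of all genes were −0.02 and 0.01. Of these calls, *Plxnb3* and *Plxnc1* in the SI and *Plxna2* in the colon were lost in 1, 2 and 1 alternatives. *Plxnb1*, a receptor of class 4 semaphorins, was at 167, 178 and 363 CPM in SI pericytes and 308, 189 and 292 CPM in colonic pericytes, against FB means of 4.41 and 5.48 CPM. All pericyte libraries were higher, by 5.79 in the SI (edgeR adjusted *p* = 2.64e-06, 6.49 without SI *Fgfr2*+ FB replicate 2) and 6.43 in the colon (edgeR adjusted *p* = 7.07e-08). *Plxna4*, a partner of *Nrp1*, was at 309, 205 and 411 CPM in SI SMC and at 3.00, 1.77 and 6.76 CPM in SI pericytes. The log2 fold change was 6.31 with all 3 higher (edgeR adjusted *p* = 1.06e-06), or 7.03 without SI pericyte replicate 3. SI PDGFRα hi FB also had less *Plxna4* than SI *Fgfr2*+ FB in all 3 libraries (−3.67, edgeR adjusted *p* = 0.00128). Between tissues, 0 of the 8 were called by edgeR in PDGFRα hi FB (0.957% of all genes called) or *Fgfr2*+ FB (1.45%), with 1 and 2 at an unadjusted *p* below 0.05, as were 1146 and 2221 of all genes. In pericytes 1 was called (5.69%), *Plxna2* (−1.67, edgeR adjusted *p* = 0.0349, libraries overlapping). It was lost in 5 of 13 alternatives, and without colonic pericyte replicate 2 the value was −0.45. With protein-coding transcripts only the value was −3.45, and the call stood.

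Among the 13 semaphorins of other classes, 3 were called in SI pericytes against FB (16.6% of all genes called) and 6 in the colon (16.0%), with medians of 0.44 and 1.16. All 3 in the SI were higher, whereas in the colon 4 were higher and 2, *Sema6a* and *Sema6b*, were lower. Of the colonic calls, *Sema4a* was lost in 10 of 21 alternatives, and *Sema4g* and *Sema6b* each in 1 of 22, without colonic pericyte replicates 3 (1.31) and 2. *Sema5b* was at 375, 246 and 264 CPM in SI pericytes and 83.0, 126 and 83.0 CPM in colonic pericytes, and its mean was 1.68 CPM in SI and 1.04 CPM in colonic FB. All pericyte libraries were higher, by 7.49 (edgeR adjusted *p* = 1.66e-12) and 6.64 (edgeR adjusted *p* = 7.92e-13). *Sema6d* averaged 666 and 626 CPM in SI and colonic pericytes, and 74.6 and 95.8 CPM in FB, with all pericyte libraries higher (3.22 and 2.73, edgeR adjusted *p* = 4.71e-08 and 1.92e-07). SI SMC were lower than SI pericytes in both genes in all 3 libraries (−6.85 and −2.12, edgeR adjusted *p* = 1.45e-07 and 0.00392). In the comparisons between FB populations and between tissues, where 0.660% to 5.69% of all genes were called, 2 calls were made among these 13, both for *Sema6a*. It was higher in SI than colonic pericytes (1.61, edgeR adjusted *p* = 0.0143, all 3 higher) and in SI PDGFRα hi than *Fgfr2*+ FB (1.72, edgeR adjusted *p* = 0.00881, all 3 higher). The tissue call was lost in the fit of those libraries alone (1.63) and without SI pericyte replicate 2 (1.09), with adjusted *p* from 0.000202 to 0.624 over 13 alternatives, and the other was lost without SI PDGFRα hi FB replicate 1 (1.49).

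Other neuropilin ligands and partners were tested as 11 genes, of which 3 were called in SI pericytes against FB (16.6% of all genes called) and 4 in the colon (16.0%), with medians of 0.34 and −0.15. In the SI *Vegfb* and *Vegfd* were lost in 7 and 4 of 19 alternatives, and in the colon *Chl1* in 4 of 22. *Vegfa*, which binds *Nrp1*, was lower in all pericyte libraries, at 5.91 against 100 CPM in the SI (−3.81, edgeR adjusted *p* = 1.28e-05) and 12.5 against 98.9 CPM in the colon (−2.74, edgeR adjusted *p* = 0.000286). *Vegfd*, a growth factor that acts on vessels, was higher in CD34+ and CD81+ FB. It was at 133, 98.9 and 88.6 CPM in SI CD34+ FB and 288, 321 and 145 CPM in colonic CD81+ FB, all above the other FB of the tissue (3.04 and 3.13, edgeR adjusted *p* = 0.00614 and 0.00121), or 5.32 and 3.77 with protein-coding transcripts only. Between tissues, 1 of the 11 was called in PDGFRα hi FB (0.957% of all genes called), *Chl1*, and 2 in pericytes (5.69%), *Vegfb* and *Vegfc*. These calls were lost in 4, 6 and 1 of 13 alternatives. In *Fgfr2*+ FB edgeR called 0 (1.45%), with 2 of the 11 and 2221 of all genes at an unadjusted *p* below 0.05.

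Of 14 intracellular mediators, 6 were called in SI pericytes against FB (16.6% of all genes called), 3 in the colon (16.0%) and 5 between SI SMC and pericytes (10.2%), with medians of 0.33, 0.23 and −1.17. Among the calls in these comparisons, the least stable were *Farp2* and *Mical3*. *Farp2* was lost in 9 of 19 alternatives in SI pericytes and in 7 of 13 against SMC, and *Mical3* in 4 of 19 in SI pericytes. *Dpysl3*, a member of the collapsin response mediator family, was at 2.79, 1.52 and 1.84 CPM in SI pericytes and averaged 345 CPM in SI FB (−7.29, edgeR adjusted *p* = 3.27e-10, all 3 lower). In SI SMC it was at 199, 325 and 177 CPM, above all SI pericyte libraries (6.85, edgeR adjusted *p* = 5.28e-09). *Mical2*, an actin-oxidising enzyme, was higher in all 3 colonic pericyte libraries than in FB (2.46, edgeR adjusted *p* = 1.65e-05). At most 2 of the 14 were called in any comparison between FB populations or tissues, where 0.660% to 5.69% of all genes were called.

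Of 5 proteases that can process class 3 semaphorins, 3 were called between SI PDGFRα hi and *Fgfr2*+ FB (2.52% of all genes called). In PDGFRα hi FB *Pcsk6* was higher, and *Adamts1* (−2.19) and *Pcsk5* (−1.91) were lower. The *Pcsk5* call was lost in 5 of 13 alternatives, and *Adamts1* was at −1.52 without SI *Fgfr2*+ FB replicate 1. *Pcsk6* was at 551, 591 and 588 CPM in SI PDGFRα hi FB and at 80.6, 47.9 and 21.1 CPM in SI *Fgfr2*+ FB. All 3 libraries were higher (3.52, edgeR adjusted *p* = 0.000844). In colonic pericytes against FB 4 were called (16.0% of all genes), *Adamts1* (1.57) and *Pcsk7* (1.59) higher and *Pcsk5* (−3.96) and *Pcsk6* lower. *Adamts1* was lost without colonic pericyte replicate 1 and *Pcsk7* without replicate 1 or 3. The *Pcsk5* value was −5.3 without replicate 3. For *Pcsk6*, colonic pericytes, at 0.645, 1.26 and 0.718 CPM, were below all colonic FB libraries (−7.50, edgeR adjusted *p* = 1.09e-08). *Adamts1*, which can cleave *Sema3c*, was at 369, 381 and 548 CPM in colonic CD81+ FB, above all other colonic FB (1.63, edgeR adjusted *p* = 0.000408). Without replicate 3 of CD81+ FB the value was 1.43, below the fold threshold. *Pcsk5* was higher in the same population, with a mean of 724 against 228 CPM (1.75, edgeR adjusted *p* = 0.00438, all 3 higher). The interaction of tissue and subset called 0 genes by edgeR in each of these 5 lists (0.660% of all genes called). The unadjusted *p* was below 0.05 for 1 plexin, 1 semaphorin, 2 partners, 0 mediators and 1 protease, and for 1380 of all genes.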

How the data were processed

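The deposited estimated counts were made by the authors with Trim Galore 0.4.0, FastQC 0.11.2 and kallisto 0.42.5 (processing notes) and were not scaled. The deposited TPM values come from the same kallisto runs by the authors, scaled for effective length and library total. The transcript set is not given in the sources used here. Of 98492 transcripts, 97204 matched GENCODE M21 (GRCm38), with 97.8–99.2% of each library's counts, and were summed to 32386 gene symbols and rounded. The top transcript held 14.8–55.9% of TPM in each library and had no gene in 28 of them, so TPM served only as an alternative.

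A gene was tested when 3 or more libraries had 6 or more counts, with the edgeR 4.0.16 quasi-likelihood fit (R 4.3.3, limma 3.58.1 contrasts), TMM factors, 1 coefficient per population over 30 libraries and Benjamini–Hochberg adjusted *p* values over all tested genes. A call needed an adjusted *p* below 0.05 and an absolute log2 fold change above 1.5. A prior count of 2 was used only for the log2 CPM behind the correlations, not for the fold changes. Bounds used a floor of 3 counts per library. DESeq2 1.42.0 was an alternative. Pathway lists and markers, like the members, were chosen with earlier results of these data known. The protein-coding-only setting and leaving out libraries for levels were chosen after seeing the data. The code was tested on simulated data.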

Additional observations from a re-analysis of the deposited data

How the results depend on the processing

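DESeq2 called 403 genes in PDGFRα hi FB between tissues (168 by edgeR), 815 in *Fgfr2*+ FB (255), 2410 in pericytes (1000), 368 in the interaction (116), 919 and 481 between PDGFRα hi and *Fgfr2*+ FB in SI and colon (443 and 234), 909 for colonic CD81+ FB (601) and 2945 for SMC against pericytes (1784). The fit of only the compared libraries called 406 genes in PDGFRα hi FB between tissues, 0 genes and 0 members in pericytes between tissues, 201 genes and 1 member in the interaction, 477 genes and 5 members in colonic PDGFRα hi against *Fgfr2*+ FB, 2 members for SI CD34+ FB, and 393 genes and 2 members for SMC against pericytes. For members, DESeq2 called 2 in pericytes between tissues, 1 in the interaction and 5 in colonic PDGFRα hi against *Fgfr2*+ FB. No filter on low counts gave 2 in pericytes and 4 in colonic PDGFRα hi against *Fgfr2*+ FB, and RLE size factors gave 1 in the latter. Protein-coding transcripts only, a setting chosen after seeing the data, gave 0 members in pericytes between tissues and 1 in colonic PDGFRα hi against *Fgfr2*+ FB.

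Leaving out a library gave 108–122 genes and 0–1 members in PDGFRα hi FB between tissues, 163–217 genes in *Fgfr2*+ FB, 626–1710 in pericytes, 63–97 genes and 0–1 members in the interaction, 129–162 genes and 0–2 members in colonic PDGFRα hi against *Fgfr2*+ FB, and 1–2 members for SI CD34+ FB.

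Of the 23 member calls, DESeq2 kept 23 and added 8, no filter kept 23 and added 4, at least 10 counts kept 23, RLE factors 22, the replicate block 22, the fit of only the compared libraries 19 with 6 added, and protein-coding transcripts only 19. No direction was reversed. The population with the highest mean was kept for 10 members with RLE factors and with protein-coding transcripts only, 8 per kilobase and 8 with TPM, and 8–10 on leaving out a library. The article says that SI and colonic subsets came from the same animals, but the pairing of libraries by replicate number is not stated. A replicate block called 177, 245 and 730 genes between tissues in PDGFRα hi FB, *Fgfr2*+ FB and pericytes and 112 in the interaction, and same-number libraries of different populations correlated at 0.00763 on average over 135 pairs against −0.00346 over 270 others. The cause of these shifts was not tested.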
